A study of Mus musculus with 6 samples.

Results

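Cytokines and chemokines are the secreted proteins by which glia, vascular cells and immune cells signal to each other, and 10 of their genes, Ccl2, Ccl3, Ccl7, Cxcl1, Cxcl12, Il6, Il18, Il33, Csf1 and Tnf, were followed here in astrocytes of mice given the dopamine D2 receptor agonist quinpirole. The 10 were taken by symbol from a table of 17193 genes, and each had a row in all 6 libraries. Astrocytes had been isolated with microbeads against ACSA-2, the surface antigen encoded by Atp1b2, from brains of wild-type C57BL/6 mice aged 3 months, and poly(A) RNA had been sequenced. The mock group and the quinpirole group held 3 libraries each, and the study used them to look for genes that respond to dopamine D2 receptor activation in astrocytes. All mice were wild type, and all cells passed through enzymatic digestion of the brain and magnetic separation. The dose and duration of quinpirole for these mice, their sex and the number of mice per library were not given in the sources used here. Because nothing stated that each library came from a separate animal, the p-values measure the spread between these libraries, which may be technical.

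Chemokines are small proteins that bind G protein-coupled receptors and direct cell migration, and they are grouped into CC and CXC families by the spacing of their first cysteines. Interleukins, tumour necrosis factor and colony-stimulating factors act through other receptor families, and several are made as precursors that must be cleaved or released before they act. In the brain, glial production of many of these proteins is low at rest and rises with injury or infection, mostly through NF-kappa B and related factors, whereas colony-stimulating factor 1 is made continuously and maintains microglia.

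The depth of a library, estimated from the steps between its lowest values, was 22350000 to 27400000 fragments. Expression was given as FPKM, fragments scaled to the length of the transcript and to sequencing depth, so that levels of different genes can be compared per length. Astrocyte markers were present, with Aldh1l1 at 165 to 182 FPKM and Gfap at 482 to 560 FPKM. Others stood much lower, with Slc1a2 at 5.15 to 8.55 FPKM and S100b at 5.01 to 6.18 FPKM, and Gjb6 did not exceed 0.281 FPKM. The 10 astrocyte markers summed to 1435 to 1599 FPKM in mock libraries and 1436 to 1463 FPKM in quinpirole libraries, and 2 of them, Atp1b2 and Slc1a2, were lower with quinpirole (limma, adjusted p = 0.0382 and 0.0297). RNA of other cells was also present. The FPKM of all genes together summed to 401769 to 413730 in the mock libraries and 425244 to 437164 in the quinpirole libraries, without overlap. A higher sum for a marker list is therefore not by itself a larger share of the RNA. The 16 microglia markers summed to 1192 to 1290 FPKM in mock libraries and 1279 to 1392 FPKM in quinpirole libraries, and the 8 mural and fibroblast markers to 2674 to 2828 FPKM and 2833 to 2992 FPKM. Most of that sum was Acta2, at 2590 ± 88.9 and 2789 ± 86.1 FPKM (limma, adjusted p = 0.171), whereas Pdgfrb, at 26.2 ± 1.10 and 21.2 ± 0.421 FPKM, and Col1a1, at 96.5 ± 6.87 and 76.1 ± 5.40 FPKM, were lower with quinpirole (0.0227 and 0.0298). Col1a2 stood at 18.6 to 22.6 FPKM, whereas Rgs5 stood at 0.179 to 0.420 FPKM and Dcn at 0.692 to 1.41 FPKM. Kcnj8 and Lum averaged under 0.1 FPKM. Ependymal markers summed to 137 to 152 FPKM and 138 to 146 FPKM, most of it Foxj1, at 118 to 130 FPKM. Rarres2 stood at 15.5 to 20.0 FPKM, whereas Ccdc153 stood at 0.402 to 1.34 FPKM and Tmem212 at 0 to 0.297 FPKM. Oligodendrocyte markers summed to 161 to 181 FPKM and 168 to 179 FPKM, most of it Cnp, and Mog, Mobp and Ermn averaged under 0.1 FPKM. Endothelial markers summed to 53.3 to 54.5 FPKM and 51.5 to 54.0 FPKM, with Slco1a4 at 44.4 to 47.6 FPKM and Pecam1, Tek and Tie1 averaging under 0.1 FPKM. Neuron markers summed to 71.1 to 76.4 FPKM and 83.1 to 89.6 FPKM, with Stmn2 higher with quinpirole, at 63.8 ± 2.97 against 54.5 ± 1.73 FPKM (limma, adjusted p = 0.0322), Tubb3 at 16.6 to 22.3 FPKM, and Rbfox3 and Snap25 averaging under 0.1 FPKM. No listed marker with a row was at 0 in all 6 libraries. In such bulk samples, fewer cells of a type and less RNA per cell cannot be told apart.

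Csf1 was by far the most abundant of the 10 genes, and its values with quinpirole all lay below those of the mock libraries, but the difference did not pass the test. Of the 7 members with a mean of at least 1 FPKM, which entered the fit, 0 passed limma's test at an adjusted p of 0.05, and 1, Csf1, had an unadjusted p under 0.05. The same fit called 10.9% of 12255 genes, 5.74% higher and 5.18% lower with quinpirole, and 31.3% had an unadjusted p under 0.05. The number of genes called in the whole table was not stable when 1 library was left out. Its 1339 genes became 6, 3, 11, 25 and 210 without mock library 1, mock library 2 and quinpirole libraries 1, 2 and 3, respectively, and 1215 without mock library 3. The genes with an unadjusted p under 0.05 in limma, 3839 with all libraries, numbered 2891 to 3920 in these omissions. The member differences had a median of 0.05 on the log2(FPKM + 1) scale, compared with 0.02 over all genes tested. Of the 7, 5 had a higher and 2 a lower mean with quinpirole, and the adjusted p-values ran from 0.0731 to 0.895. The groups did not overlap for 1 of the 7, whereas 36.9% of all tested genes had groups that did not overlap.

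**Figure D1:**
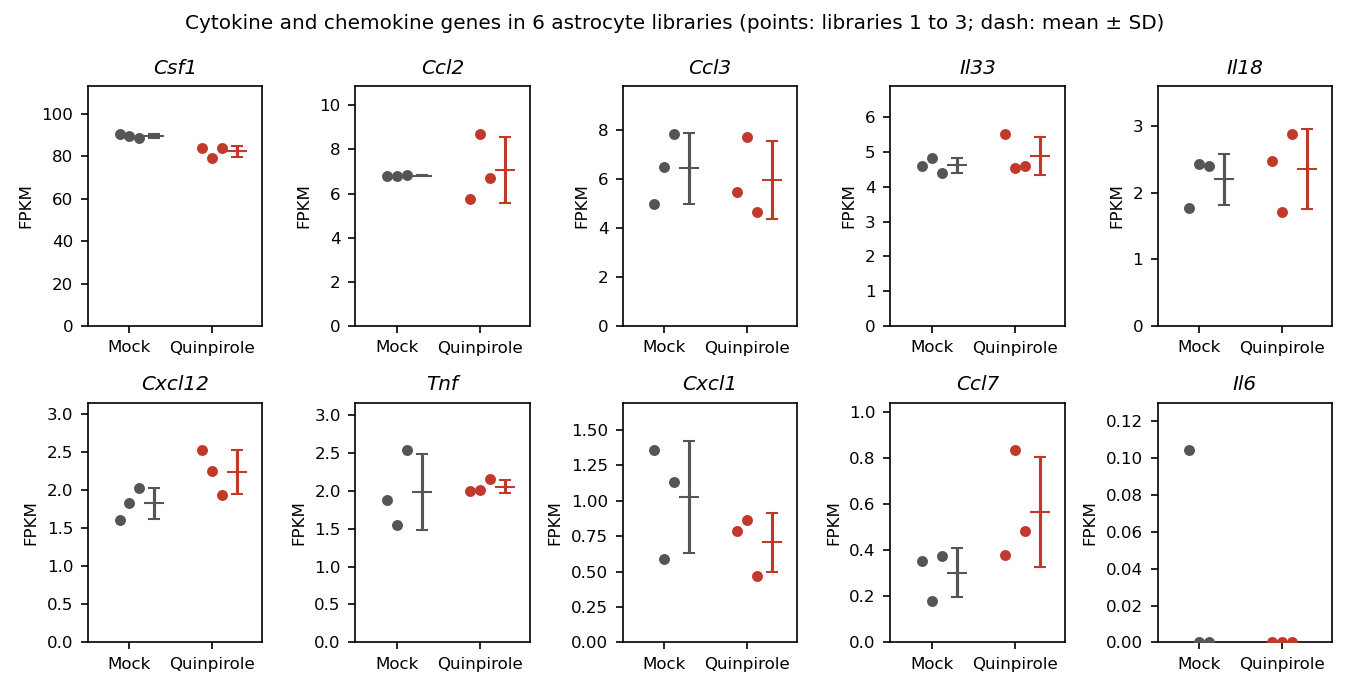
FPKM of each of the 10 genes in the 3 mock and 3 quinpirole libraries, 1 panel per gene with its own axis; points are libraries, and bars beside them give the mean and SD (omitted for Il6, which was listed at 0 in 5 libraries). Only for Csf1 (79.4 to 84.1 against 88.5 to 90.6 FPKM) and Ccl7 (0.380 to 0.831 against 0.180 to 0.375 FPKM) did the groups not overlap.

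The promoters of 3 members held a match to the NF-kappa B motif, and they are printed because this factor is the best known activator of inflammatory cytokine genes. RefSeq promoters on GRCm38.p6 were found for 8 of the 10 members, with 2 for Il33 and none for Ccl2 and Ccl7. Each holds 300 bases, from 250 before to 50 after the start used for that promoter. This start is not always the one in the gene positions given below, which came from GENCODE. The Il18 promoter, at 50554450 to 50554749, ends before the start of 50554827 given for that gene. Of these 9 promoters, 3 held the NF-kappa B motif on either strand, compared with 4.51% of all 32851 promoters. The sequences run 5′ to 3′ on the strand of the gene, and capitals mark the matched bases, which in Cxcl1 are 2 overlapping matches.
Csf1 (chr3:107760420-107760719, minus strand): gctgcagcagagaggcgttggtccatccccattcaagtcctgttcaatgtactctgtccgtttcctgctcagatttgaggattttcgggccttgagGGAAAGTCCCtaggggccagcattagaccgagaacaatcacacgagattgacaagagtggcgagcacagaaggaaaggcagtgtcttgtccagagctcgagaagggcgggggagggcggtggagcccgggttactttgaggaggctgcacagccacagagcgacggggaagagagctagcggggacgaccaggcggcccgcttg
Cxcl1 (chr5:90890995-90891294, plus strand): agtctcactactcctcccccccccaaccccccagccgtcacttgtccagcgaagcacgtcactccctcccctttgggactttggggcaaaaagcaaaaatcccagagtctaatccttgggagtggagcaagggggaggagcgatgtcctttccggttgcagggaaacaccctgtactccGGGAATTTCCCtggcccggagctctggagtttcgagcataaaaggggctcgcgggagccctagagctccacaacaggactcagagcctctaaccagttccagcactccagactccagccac
Il6 (chr5:30012864-30013163, plus strand): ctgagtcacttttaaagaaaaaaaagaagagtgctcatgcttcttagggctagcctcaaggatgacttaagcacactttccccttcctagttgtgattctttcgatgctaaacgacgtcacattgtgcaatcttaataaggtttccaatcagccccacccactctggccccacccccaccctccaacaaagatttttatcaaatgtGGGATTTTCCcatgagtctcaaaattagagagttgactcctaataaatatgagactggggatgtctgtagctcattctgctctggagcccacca

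The match began at -154 from the start used for the promoter in Csf1, at -71 and -70 in Cxcl1 and at -44 in Il6. These genes stood at opposite ends of the order of levels, with Csf1 at a mean of 86.0 FPKM, Cxcl1 at 0.865 FPKM and Il6 at 0.0173 FPKM. The AP-1 motif TGANTCA was found in 1 of the 9 promoters, that of Il6, and in 7.81% of all promoters. The letters of the TATA box, TATAAA, were found on either strand and at any position in 4 of the 9 and in 13.6% of all promoters. The 4 were those of Il18, where the match was on the opposite strand, Tnf and both of Il33. The cyclic AMP response element TGACGTCA was found in 0 of the 9 and in 1.79% of all promoters. All motifs were searched on both strands, none of the printed matches to the NF-kappa B motif was checked for binding, and a match is a description of letters only.

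Csf1, on chromosome 3 from 107741048 to 107760469 (GRCm38, minus strand), encodes colony-stimulating factor 1, the ligand of CSF1R that sustains microglia and macrophages. It was measured at 90.6, 89.8 and 88.5 FPKM in mock libraries 1 to 3 and at 84.1, 79.4 and 83.8 FPKM in quinpirole libraries 1 to 3. All quinpirole values lay below all mock values, with the lowest in quinpirole library 2, and groups separated in this direction in 16.9% of all tested genes. The means were 89.6 ± 1.05 and 82.4 ± 2.62 FPKM (SD, n = 3 each), a ratio of 0.920. The log2 difference was -0.12 with a standard error of 0.04 (95% interval -0.21 to -0.03; limma, adjusted p = 0.0731 by Benjamini-Hochberg, unadjusted p = 0.0124), lower in 3 of 3 libraries. Quantile normalization moved it past the threshold, at -0.19 with an adjusted p of 0.0470 in limma, and over all alternatives the adjusted p ran from 0.0470 to 0.191. With about 9892 to 12990 estimated fragments per library, counting error was 0.895% in the mock group and 0.964% in the quinpirole group, against observed coefficients of variation of 1.17% and 3.18%.

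The CC chemokines Ccl2, Ccl3 and Ccl7 lie on chromosome 11. Ccl2, at 82035571 to 82037453 on the plus strand, encodes the ligand of CCR2 that draws monocytes. It stood at 6.81, 6.78 and 6.83 FPKM in the mock libraries and 5.75, 8.70 and 6.71 FPKM in the quinpirole libraries. The mock values were nearly equal, and the quinpirole values lay on both sides of them, with library 2 highest. The means were 6.81 ± 0.0272 and 7.05 ± 1.5 FPKM, and the log2 difference was 0.03 with a standard error of 0.12 (95% interval -0.26 to 0.31; limma, adjusted p = 0.895). Without quinpirole library 2 the log2 difference was -0.11. The mock coefficient of variation of 0.4% was below the 7.0% that counting about 197 to 211 estimated fragments gives, so the closeness of these 3 values goes beyond what their depth can resolve.

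Ccl7, from 82045712 to 82047525 next to Ccl2 on the same strand, encodes another monocyte-attracting chemokine. It stood at 0.352, 0.180 and 0.375 FPKM in the mock libraries and 0.380, 0.831 and 0.484 FPKM in the quinpirole libraries, so that every quinpirole value lay above every mock value. The estimated fragments were only 4.0 to 16.9 per library, with 7.6 in mock library 3 and 8.1 in quinpirole library 1, the values nearest to each other. The gene was outside the fit, and its log2 difference of 0.26 had a two-sided exact permutation p of 0.1, the smallest that 3 against 3 libraries can give. The difference was 0.70 with a pseudocount of 0.1 and 0.14 without quinpirole library 2. A separation in this direction was found in 20% of the genes in the fit.

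Ccl3, from 83647844 to 83649355 on the minus strand, encodes MIP-1 alpha, a ligand of CCR1. It stood at 4.95, 6.48 and 7.82 FPKM in the mock libraries and 5.45, 7.71 and 4.66 FPKM in the quinpirole libraries. The groups overlapped over most of their ranges. The log2 difference was -0.10 with a standard error of 0.19, the largest standard error of the 7 (95% interval -0.54 to 0.34; limma, adjusted p = 0.744), and it was 0.03 without mock library 3 and 0.03 without quinpirole library 3. Ccl4, which encodes the related MIP-1 beta, showed a like order of libraries, at 4.73, 6.77 and 8.60 FPKM in the mock and 6.03, 7.91 and 6.14 FPKM in the quinpirole libraries. Over the 6 libraries, which share their preparation and depth between the 2 genes, Ccl3 and Ccl4 had a Pearson r of 0.88 and a Spearman rho of 0.83.

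Among the CXC chemokines, Cxcl12, on chromosome 6 from 117168535 to 117181367 (plus strand), encodes SDF-1, the ligand of CXCR4 and ACKR3. It stood at 1.61, 1.83 and 2.03 FPKM in the mock libraries and 2.52, 2.25 and 1.94 FPKM in the quinpirole libraries. Quinpirole libraries 1 and 2 lay above all mock libraries, whereas quinpirole library 3 lay below mock library 3. The log2 difference of 0.20 was the largest of the 7 in size, with a standard error of 0.09 (95% interval -0.02 to 0.42; limma, adjusted p = 0.201), and it remained positive in each omission of 1 library, at 0.13 to 0.26.

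Cxcl1, on chromosome 5 from 90891241 to 90893115 (plus strand), encodes a ligand of CXCR2 that attracts neutrophils. It stood at 1.35, 0.586 and 1.13 FPKM in the mock libraries and 0.786, 0.863 and 0.472 FPKM in the quinpirole libraries. The highest values were those of mock libraries 1 and 3, but mock library 2 lay within the quinpirole range. With 19.8 to 67.0 estimated fragments per library it was outside the fit, and its log2 difference of -0.23 had a two-sided exact permutation p of 0.3. The difference was -0.44 with a pseudocount of 0.1, -0.11 without mock library 1, -0.13 without quinpirole library 3 and -0.40 without mock library 2.

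The interleukins were weakly expressed. Il33, on chromosome 19 from 29925114 to 29960718 (plus strand), encodes a nuclear alarmin of glia that signals through ST2, and it stood at 4.62, 4.84 and 4.4 FPKM in the mock libraries and 5.52, 4.56 and 4.61 FPKM in the quinpirole libraries. Only quinpirole library 1 stood above the mock range. The log2 difference was 0.07 with a standard error of 0.08 (95% interval -0.12 to 0.25; limma, adjusted p = 0.605), and -0.01 without that library. Il18, on chromosome 9 from 50554827 to 50581840 (plus strand), encodes a precursor that caspase-1 cleaves, and it stood at 1.76, 2.44 and 2.40 FPKM in the mock libraries and 2.47, 1.70 and 2.88 FPKM in the quinpirole libraries. The lowest and the highest of the 6 values both belonged to the quinpirole group. Its log2 difference of 0.06 had a standard error of 0.15 (95% interval -0.29 to 0.41; limma, adjusted p = 0.820) and was -0.04 without mock library 1 and -0.06 without quinpirole library 3. Il6, on chromosome 5 from 30013114 to 30019981 (plus strand), encodes the interleukin that signals through IL6ST, and it was listed at 0 in 5 libraries and at 0.104 FPKM, or about 6.7 estimated fragments, in mock library 1. No fold is given for it, because all 3 quinpirole libraries were listed at 0.

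Tnf, on chromosome 17 from 35199381 to 35202007 (minus strand), encodes tumour necrosis factor, which is released from the membrane by ADAM17. It stood at 1.88, 1.55 and 2.53 FPKM in the mock libraries and 2.0, 2.02 and 2.15 FPKM in the quinpirole libraries. The quinpirole values were close together and lay inside the mock range. The log2 difference was 0.05 with a standard error of 0.12 (95% interval -0.23 to 0.32; limma, adjusted p = 0.822), and -0.06 without mock library 2. The quinpirole coefficient of variation of 4.21% was below the 11.0% from counting about 78.9 to 86.9 estimated fragments.

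**Figure D2:**
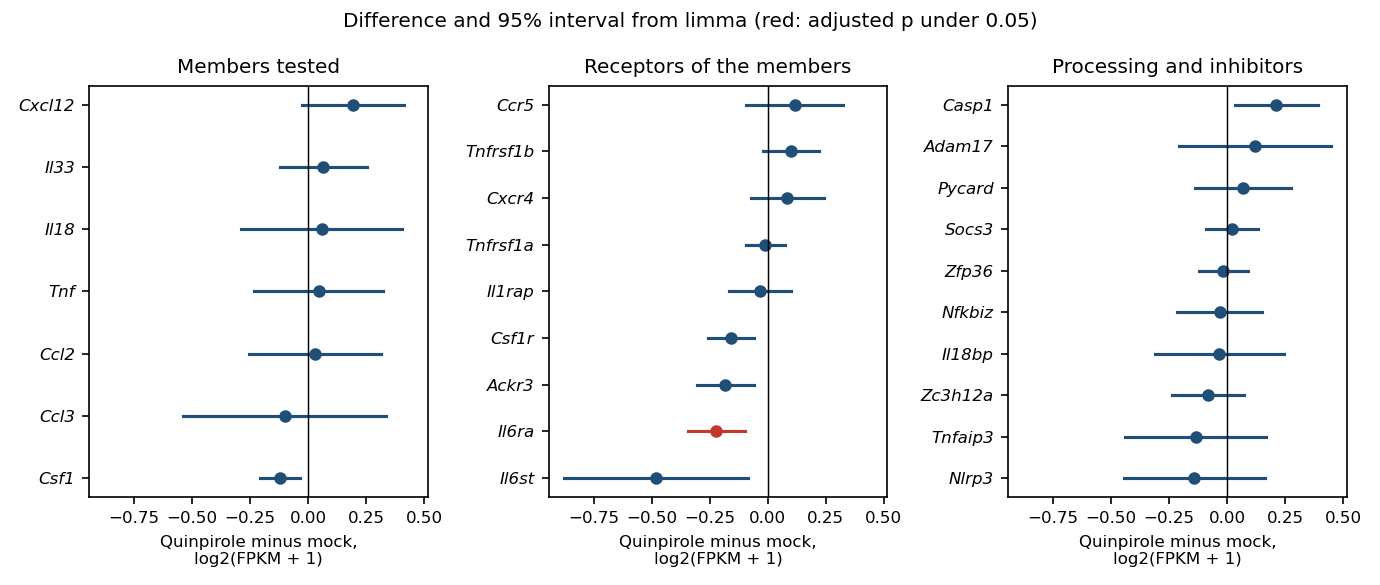
Difference of log2(FPKM + 1), quinpirole minus mock, with 95% intervals from limma. Separate panels show the 7 members in the fit, the 9 tested receptors and the 10 tested genes that process or restrain the members. Among the members, the interval of Csf1, from -0.21 to -0.03, is the only one that does not hold 0. That of Ccl3 is the widest of the members, from -0.54 to 0.34. In the other panels the intervals of Il6ra, Il6st, Ackr3, Csf1r and Casp1 do not hold 0, and only Il6ra had an adjusted p under 0.05.

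In order of mean level over the 6 libraries, Csf1 at 86.0 FPKM was followed by Ccl2 at 6.93, Ccl3 at 6.18, Il33 at 4.76, Il18 at 2.28, Cxcl12 at 2.03, Tnf at 2.02, Cxcl1 at 0.865, Ccl7 at 0.434 and Il6 at 0.0173 FPKM. The mean of Csf1 was higher than that of 95.3% of the genes in the table, and that of Ccl2 higher than 53.6%. Neighbours in this order had ranges apart for Csf1 and Ccl2, for Il33 and Il18, for Tnf and Cxcl1 and for Ccl7 and Il6. The ranges of the other neighbours overlapped, and Cxcl12 exceeded Tnf in 3 of 6 libraries.

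**Figure D3:**
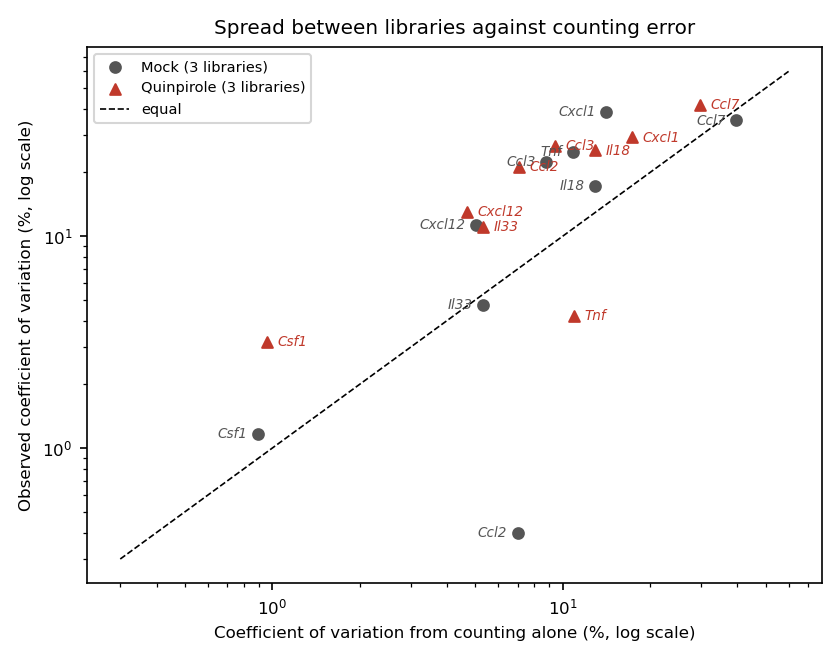
Observed coefficient of variation between the 3 libraries of a group (vertical, %, log scale) against that expected from counting the estimated fragments alone (horizontal, %, log scale), for 9 members in each group; the dashed line marks equality. Mock Ccl2 (0.4% against 7.0%) and quinpirole Tnf (4.21% against 11.0%) lie far below the line.

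The receptors of these ligands were tested in the same fit. Of 16 listed, 15 had a row (Cxcr2 had none), 9 were tested, and 1, Il6ra, was lower with quinpirole, with a median log2 difference of -0.03. That is 11.1% of the tested receptors, near the 10.9% called over all genes. Il6ra, the ligand-binding chain of the interleukin-6 receptor, fell from 14.1 ± 0.716 to 11.9 ± 0.355 FPKM (log2 difference -0.22, standard error 0.05; limma, adjusted p = 0.0438), with values of 14.3, 14.6 and 13.3 FPKM against 12.3, 11.7 and 11.8 FPKM that did not overlap. The call was lost without mock library 1 (adjusted p = 0.124), mock library 2 (0.142), quinpirole library 1 (0.0784), quinpirole library 2 (0.122) or quinpirole library 3 (0.0934) in limma. It was also lost after correction for transcript length, at -0.14 with an adjusted p of 0.105, without a filter on low values (0.0625), after quantile normalization (0.0538) and with eBayes without trend (0.0546). Il6st, the signalling chain gp130, averaged 43.7 ± 7.51 and 31.2 ± 7.04 FPKM with overlapping groups (limma, adjusted p = 0.104).

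Csf1r, the receptor of Csf1 and itself one of the microglia markers, stood at 57.0, 57.5 and 54.0 FPKM in the mock libraries and 48.3, 51.4 and 50.9 FPKM in the quinpirole libraries. The groups did not overlap, but the log2 difference of -0.16 with a standard error of 0.04 did not pass the test (limma, adjusted p = 0.0531). It passed in 5 of 16 alternatives, namely without mock library 3 (0.0484), with a minimum mean of 5 FPKM (0.0453), with median ratio scaling (0.0464), after quantile normalization (0.0400) and with robust estimation (0.0478). The summed level of the 16 microglia markers was 1192 to 1290 FPKM in the mock and 1279 to 1392 FPKM in the quinpirole libraries, with Siglech under 0.1 FPKM, and their part in the values of Csf1r was not tested. For the CXCL12 receptors, Cxcr4 averaged 37.6 ± 1.82 and 40.0 ± 3.40 FPKM (limma, adjusted p = 0.429) and the scavenging receptor Ackr3 13.2 ± 0.299 and 11.6 ± 0.619 FPKM (0.0657). Tnfrsf1a, the main tumour necrosis factor receptor, averaged 88.9 ± 2.0 and 88.3 ± 1.99 FPKM, and Tnfrsf1b 7.96 ± 0.289 and 8.61 ± 0.237 FPKM. Il1rap, the shared chain of the ST2 receptor, averaged 10.3 ± 0.201 and 10.1 ± 0.645 FPKM. The receptors Ccr2, Ccr3, Il18r1 and Il1rl1 averaged under 0.1 FPKM.

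Of 12 genes that process or restrain the members, 10 were tested and 0 passed limma's test, against 10.9% of all genes. Their median log2 difference was -0.02. The most abundant were Socs3, a feedback inhibitor of interleukin-6 signalling, at 27.2 ± 0.461 and 27.6 ± 1.48 FPKM, and Zfp36, at 22.7 ± 0.590 and 22.5 ± 0.826 FPKM. Zfp36 encodes tristetraprolin, which binds AU-rich elements in cytokine messages. Its nonamer TTATTTATT was present in the annotated 3′ untranslated region of 2 of the 10 members, 5 times in Tnf and 2 times in Cxcl1, compared with 7.61% of 16657 genes.

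Other ligands of the same families were mostly uncalled. Of 28 other chemokines 18 had a row, 12 were tested, and 1 was called, or 8.33% against 10.9% of all genes, with a median log2 difference of 0.01. Pf4, platelet factor 4, stood at 0.875, 1.27 and 1.11 FPKM in the mock libraries and 2.51, 2.17 and 1.81 FPKM in the quinpirole libraries, without overlap (log2 difference 0.60, standard error 0.11; limma, adjusted p = 0.0258). The call was lost without mock library 1 (0.0770), mock library 2 (0.0905), quinpirole library 1 (0.0652) or quinpirole library 2 (0.0833), and after length correction, at 0.46 with an adjusted p of 0.0581 in limma. With a pseudocount of 0.1 the difference was 0.94. Pf4 was also among the 6 border macrophage markers, which summed to 13.1 to 15.4 FPKM in mock and 15.7 to 19.1 FPKM in quinpirole libraries. Most of that sum was Ms4a7, at 12.96 ± 0.923 and 14.84 ± 1.52 FPKM with overlapping groups (limma, adjusted p = 0.178). Mrc1 stood at 0.180 to 0.389 FPKM, and Cd163, Lyve1 and Cd209f were under 0.1 FPKM. The sum includes Pf4 itself, and the part of the other markers in the difference of Pf4 was not tested. The most abundant of the other chemokines were Cx3cl1, at 43.4 ± 2.53 and 44.1 ± 0.963 FPKM, and Cxcl14, at 25.2 ± 0.816 and 27.2 ± 1.98 FPKM.

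Of 34 other cytokines 30 had a row, 12 were tested, and 1 was called, again 8.33% against 10.9%, with a median log2 difference of 0.07. Il34, which encodes the other ligand of CSF1R, stood at 10.1, 10.1 and 8.94 FPKM in the mock libraries and 11.8, 13.4 and 12.3 FPKM in the quinpirole libraries. It rose without overlap (log2 difference 0.33, standard error 0.07; limma, adjusted p = 0.0310). The call was lost without mock library 1 (0.0760), mock library 2 (0.0979), quinpirole library 1 (0.0621), quinpirole library 2 (0.0940) or quinpirole library 3 (0.0623), and after length correction, at 0.24 with an adjusted p of 0.0972, and without a filter on low values (0.0518) in limma. Its FPKM was lower than that of Csf1 in all 6 libraries. The most abundant of this list were Mif, at 181 ± 4.65 and 199 ± 12.7 FPKM, and Clcf1, at 60.9 ± 4.04 and 63.6 ± 1.16 FPKM.

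Differences between the groups varied with transcript length across the whole table, which touches the short chemokine genes. When the tested genes with a known exonic length were put in 5 bins of equal size, the median log2 difference was 0.12 in the shortest bin, then 0.06, 0.02 and -0.03, and -0.11 in the longest. Ccl2, Ccl3, Il18 and Tnf were in the shortest bin, Il33 in the second, Csf1 in the third and Cxcl12 in the longest. The log2 difference of Cxcl12 was higher than that of 97.2% of its bin, and that of Ccl3 higher than 8.14% of its bin. After the length correction the log2 differences of Ccl2, Il18 and Tnf became -0.10, -0.074 and -0.059, that of Ccl3 -0.24, that of Il33 0.0027 and that of Cxcl12 0.27.

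**Figure D4:**
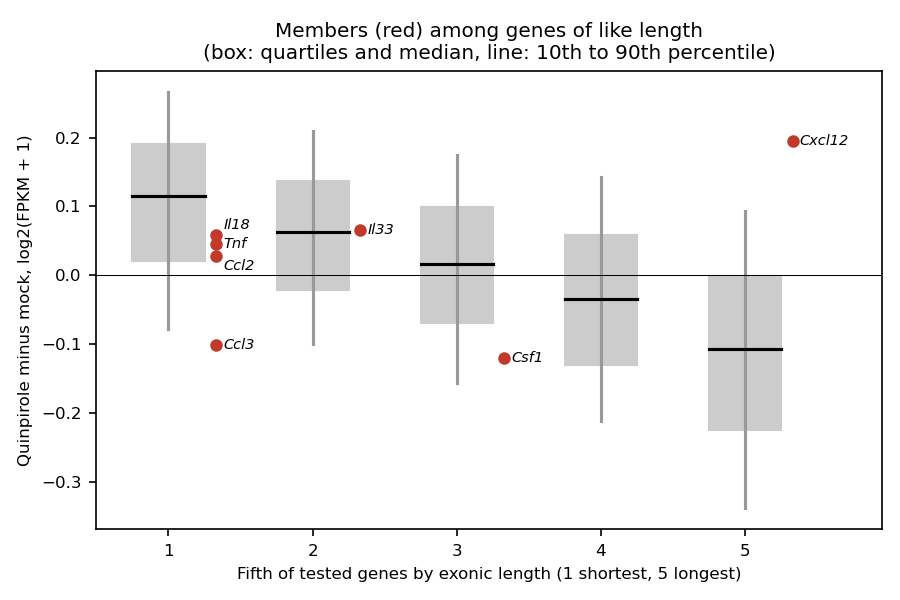
Difference of log2(FPKM + 1), quinpirole minus mock, of the tested genes in 5 bins of exonic length of equal size (boxes give quartiles and the median, lines the outer percentiles named in the title), with the 7 members of the fit as red points. The bin medians go from 0.12 in the shortest to -0.11 in the longest, and Cxcl12 lies above most genes of its bin.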

How the data were processed

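Poly(A) RNA of ACSA-2-isolated astrocytes was sequenced in 6 libraries. After trimming, reads were mapped by the authors (TopHat2 and GRCm38, per the submitters' processing notes), and the deposited unit is FPKM, with 1 value for each gene in a library. The program that computed FPKM, its annotation and the TopHat2 version were not given in the sources used here. Gene identifiers were matched to symbols (17090 of 17193). Positions and lengths came from GENCODE M21 on GRCm38 and promoters from RefSeq. No 50-base word of any member occurred in transcripts of another gene (0%).

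The log2(FPKM + 1) values were tested for the 12255 genes whose FPKM averaged 1 or more, with limma 3.58.1 in R 4.3.3 (two-sided, eBayes with trend, adjusted by Benjamini-Hochberg over all genes tested, threshold 0.05). Such differences understate the change of low genes. Genes outside the fit were tested by exact permutation, two-sided. Depth was estimated from the steps of low values, of which 58.7% to 66.5% per library lay within 0.1 of a whole fragment, so fragment numbers are approximate and counting errors cover counting only. On simulated data with independent normal noise, 192 of 200 genes changed by 1 log2 unit were recovered. Another 11 were called among 12255 genes. That change was larger than the largest difference of a member in the fit, 0.20 for Cxcl12. Recovery of differences as small as those of the members was not tested.

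Members and lists were chosen with earlier results of these data known. All members were named, and, from each related list, the genes past the threshold and the 2 most abundant, every receptor with a mean of at least 1 FPKM, and the 2 genes most alike in pattern to each member of the fit. Some genes that this rule takes in are not reported here. Ccl4, Lif, Atp1b2, Slc1a2 and the markers given with values were named beside these after their values were seen. Alternatives were another pseudocount (0.1), no filter or a minimum of 5 FPKM, median ratio and quantile scaling, a replicate block, other eBayes settings, length and GC corrections by loess (span 0.3) and omission of each library. Python 3.11.15 with pandas 2.3.3, numpy 2.4.6, scipy 1.17.1 and matplotlib 3.10.9 was used for tables and figures.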

Additional observations from a re-analysis of the deposited data

How the results depend on the processing

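The number of genes called in the whole table, 1339, was 633 without a filter on low values, 783 after quantile normalization, 714 with eBayes without trend and 509 after length correction, and it ranged from 3 (without mock library 2) to 1215 (without mock library 3) when 1 library was left out. The share called higher, 52.6%, was 36.1% after quantile normalization and 41.0% without trend. The number of members called stayed at 0 except after quantile normalization, where it was 1 (Csf1), and was 0 in each omission of 1 library. Of 131 alternative member values, 10 changed sign and 1 passed the threshold. Many of these values could not do so. The filters, the replicate block and the other eBayes settings left each log2 difference as it was, so its sign could not change. The exact permutation p-values of Ccl7, Cxcl1 and Il6 could not pass the threshold, because none can be under 0.1. After length correction the log2 differences were -0.10 for Ccl2, -0.074 for Il18 and -0.059 for Tnf. With 1 library left out they ranged from -0.11 to 0.15 for Ccl2, from -0.28 to 0.034 for Ccl3, from -0.056 to 0.20 for Il18, from -0.0087 to 0.11 for Il33 and from -0.061 to 0.17 for Tnf. The causes were not tested. With the replicate number as a block, 2 genes of the table and 0 members passed, and the calls of Il6ra, Pf4 and Il34 were lost (limma, adjusted p = 0.0985, 0.0802 and 0.0802). The numbers were not shown to pair libraries, since deviations of same-numbered libraries correlated at -0.10 to 0.03 and 0 of 6 libraries correlated best with their own number. Depth limits Ccl7, Cxcl1 and Il6 most, with at most 67.0 estimated fragments per library.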

Other observations

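Lif, which encodes leukemia inhibitory factor and was not called, stood at 3.96, 3.42 and 3.83 FPKM in the mock libraries and at 4.41, 1.16 and 3.88 FPKM in the quinpirole libraries, with quinpirole library 2 below the others.

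The genes most alike in pattern to each member were sought by Pearson r of log2(FPKM + 1) over the 6 libraries, among 12254 other genes. With so few libraries, which share their groups and preparation, these values are a description. For Csf1 they were Cacna1d (0.998) and Zfyve26 (0.997), and 545 genes exceeded an r of 0.95 with it. For the other members of the fit, between 8 and 48 genes did. Ccl2 was most like Blnk (0.987) and Pomt1 (0.984), and Ccl3 most like Riok3 (0.987) and Skida1 (0.983). Cxcl12 was most like Ppp1r1b (0.992) and Ctsh (0.989). Il18 was most like Ipo11 (0.979), Il33 most like Rabep2 (0.993) and Carf (0.981), and Tnf most like Klc2 (0.999) and Rbks (0.989). The neighbouring genes Ccl2 and Ccl7 had a Pearson r of 0.70 and a Spearman rho of 0.14, so that their order of libraries was not shared.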
